A study of Microtus ochrogaster with 25 samples.

Results

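Nuclear gene expression in the nucleus accumbens of male prairie voles (Microtus ochrogaster) was compared between MAN1 and MAN0 rearing in 12 of the 25 libraries of the study. The members were chosen by their labels alone: 5 libraries from MAN1 males and 7 from MAN0 males, all of bulk nucleus accumbens. The other 13 libraries, from females, were used only to ask whether the difference in males departed from that in females. MAN1 and MAN0 are the submitters' names for early-life environments and are not defined in the labels. In published vole work these names refer to an early handling of the family: parents of the MAN1 kind were picked up by hand, and those of the MAN0 kind were moved without being touched. The labels give no age, and they leave unsaid whether each library is a different animal and litter. The p-values therefore reflect the spread among these libraries, which may be partly technical. The sample-sheet index in the titles starts again at library 17, so libraries up to 16 were taken as run 1 (4 MAN1 and 4 MAN0 males) and later ones as run 2 (1 MAN1 and 3 MAN0 males). Run was a term in the models.

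The nucleus accumbens, part of the ventral striatum, is made up mostly of inhibitory medium spiny neurons that receive dopamine from the midbrain, and it takes part in reward and motivation. In prairie voles, a socially monogamous rodent in which both parents care for the young, dopamine and oxytocin receptors in this region are known for their part in pair bonding. Most messenger RNA of a cell is made in the nucleus. Mitochondria carry a small genome of their own, and its transcripts also have poly(A) tails, so they enter libraries made by poly(A) capture.

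Of the 19648 rows of the table, 13 were listed as mitochondrial and set aside before scaling, which left 19635 nuclear rows. The 13 rows held 8 of the 10 most abundant identifiers in males. The remaining counts were scaled to a common total with TMM factors (trimmed mean of M-values, a scaling that makes most genes level between libraries) and are given as nuclear CPM, the share of a library's nuclear counts on the usual scale. The files pair no identifier with a gene name, so genes are given by identifier, and neither the tissue nor the presence of other cell types could be checked against marker genes. Without names, no gene can be assigned to a pathway or a cell type here. In bulk tissue, fewer cells of a type and less RNA per cell cannot be told apart.

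Total counts lay between 21240287 and 32570010 in the 12 male libraries, and 14507 nuclear genes had enough counts to be tested. Mean total counts were 22800000 ± 1450000 in MAN1 males (SD, n = 5) and 26100000 ± 3520000 in MAN0 males (SD, n = 7), with overlapping ranges. The lowest total was that of MAN1 male 5, the only MAN1 male of run 2. The MAN0 males of run 2 had 24785251 to 32570010. MAN0 male 2 and MAN0 male 4 stood apart from the other males. MAN0 male 2 had the largest mitochondrial share, 17.8% of all counts, and lay at -63.2 on the first principal component of the nuclear genes (23% of the variance), on which the other 11 males lay between -10.1 and 19. MAN0 male 4 held 15 nuclear genes at 5 CPM or more that were at least 10 times higher than in any other male. These 15 genes summed to 12070 CPM, against 160 CPM from 2 such genes in MAN0 male 5, 7 CPM from 1 in MAN0 male 2 and 0 such genes in the other 9 males. The highest of them, ENSMOCG00000022860, stood at 5250 CPM in MAN0 male 4 on the scale of all 25 libraries, and the next male, MAN0 male 2, had 10.2 CPM. Among the females it reached 51.2 CPM in MAN1 female 3 and 17.7 CPM in MAN0 female 7. ENSMOCG00000013034, at 3230 CPM, and ENSMOCG00000021815, at 758 CPM, were also high in that library. All 3 were picked after their values were seen and failed the low-count filter, so they entered no test. What these transcripts are, and which cells they came from, was not tested.

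The mitochondrial share was lower in MAN1 males, though the difference did not pass once adjusted for the 4 library measures tested. The 5 MAN1 males had shares of 8.02, 9.54, 9.13, 9.65 and 7.71% for replicates 1 to 5. The 7 MAN0 males ranged from 8.88% to 17.8%, with a median of 10.1%. In run 2 the single MAN1 male, at 7.71%, lay below all 3 MAN0 males, which had 9.57, 9.88 and 10.1%. In run 1 the groups overlapped, since MAN0 male 1, at 8.88%, lay below 3 of the 4 MAN1 males. The means were 8.81% ± 0.889 (SD, n = 5) and 11.1% ± 3.04 (SD, n = 7). With run in the model the difference was -2.68 points (2-sided exact permutation p = 0.0179, labels permuted within run, 280 assignments). Adjusted by Benjamini-Hochberg over the 4 library measures tested, the exact permutation p was 0.0714, above the threshold of 0.05. Without MAN0 male 2 it was -1.31 points (exact permutation p = 0.0357), without MAN0 male 2 and MAN0 male 4 it was -1.02 points (exact permutation p = 0.1), and in run 1 alone it was -2.88 points (exact permutation p = 0.143). Leaving out any single MAN1 male also took the unadjusted p above 0.05, with differences between -2.88 and -2.41 points.

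In females the estimate was smaller and did not exceed the spread between libraries. MAN1 females had 9.47% ± 2.13 (SD, n = 6) and MAN0 females 10.7% ± 2.09 (SD, n = 7). With run in the model, MAN1 females were lower by a difference of -1.17 points (exact permutation p = 0.351, 700 assignments). The difference in males minus that in females was -1.51 points, with an exact permutation p of 0.51, so the share was not shown to differ between the sexes in its response to rearing. That test permuted the sexes independently and took no account of any variation shared by males and females of the same number.

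**Figure D1:**
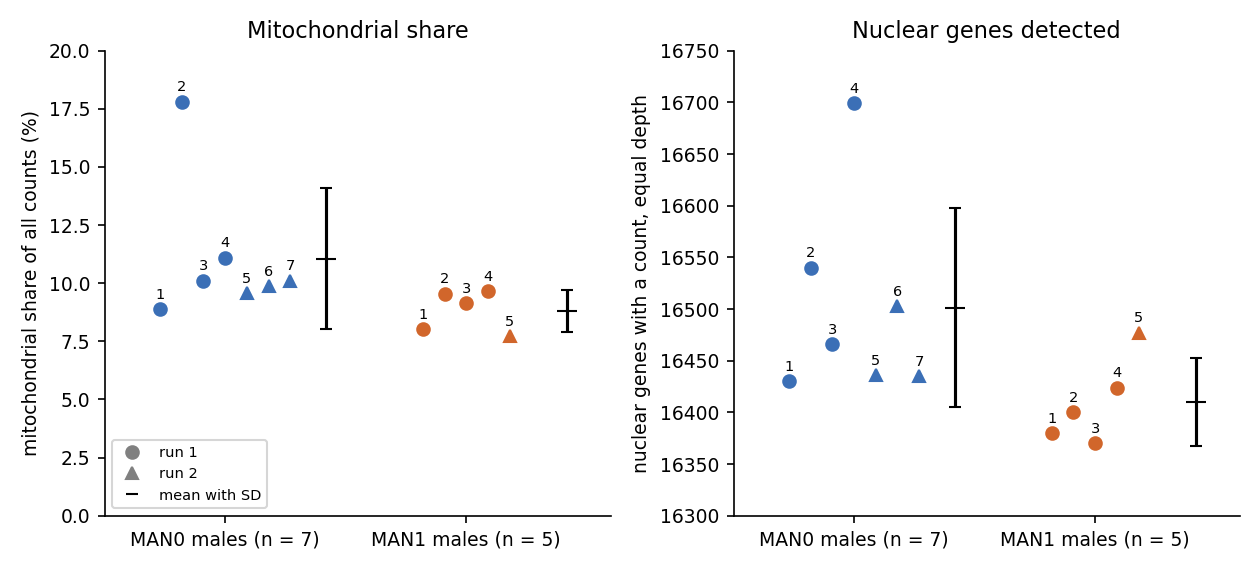
Mitochondrial share of all counts in percent (left) and nuclear genes with a count after thinning to equal depth (right, axis not from 0) in each male library. Numbers are replicates, circles run 1, triangles run 2, and bars the mean with SD. MAN0 male 2 stands apart at 17.8% on the left and MAN0 male 4 at 16699 genes on the right.

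The number of nuclear genes seen did not pass the test over both runs, though it was lower in the MAN1 males of run 1. Since deeper libraries show more genes, each library was thinned by calculation to 18926011 nuclear counts, a measure added after the data were seen. At that depth the MAN1 males had 16380, 16400, 16370, 16424 and 16477 genes with a count, for replicates 1 to 5. The MAN0 males ranged from 16430 to 16699. All 4 MAN1 males of run 1 lay below all 7 MAN0 males, whereas the MAN1 male of run 2 lay within the MAN0 range. The means were 16410 ± 42.8 (SD, n = 5) and 16501 ± 96.4 (SD, n = 7). The run-adjusted difference of -96.5 genes had an exact permutation p of 0.0536, or 0.107 after adjustment over the 4 library measures. It was -53 genes without MAN0 male 4 (exact permutation p = 0.0929) and -27.5 without MAN0 male 2 and MAN0 male 4 (exact permutation p = 0.267). In run 1 alone, which is also the comparison without MAN1 male 5, it was -140 genes (exact permutation p = 0.0286). Run 1 holds both MAN0 male 2 (16540 genes) and MAN0 male 4 (16699), while MAN0 male 1 had 16430 and MAN0 male 3 had 16466. Leaving out MAN0 male 1, MAN0 male 5 or MAN0 male 7 also took the unadjusted p under 0.05, with differences of -116, -103 and -103 genes. Before thinning, the libraries held 16472 ± 34.2 genes in MAN1 and 16631 ± 115.2 in MAN0 males. Mean total counts were lower in MAN1 males, so depth also enters these unthinned numbers.

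The share of the counts taken by the most abundant nuclear genes did not differ beyond the spread between libraries. The 10 most abundant nuclear genes held 2.85% ± 0.239 of the nuclear counts in MAN1 males (SD, n = 5) and 2.96% ± 0.134 in MAN0 males (SD, n = 7). The difference with run in the model was -0.145 points (exact permutation p = 0.214, adjusted p = 0.286), and without MAN1 male 2 it was -0.221 points (exact permutation p = 0.0429). Among the 100 most abundant nuclear genes, each with a mean of at least 849 CPM, the fitted log2 fold changes lay between -0.594 and 0.272, with a median of 0.021. At an unadjusted p under 0.05 there were 14 of these 100 genes, 9 higher and 5 lower in MAN1, a share no larger than the 15.9% of all 14507 genes tested.

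No single nuclear gene passed the test in males by the main method. In edgeR's quasi-likelihood test on the 12 male libraries, 0 of 14507 genes (0%) had a Benjamini-Hochberg adjusted p under 0.05, and the smallest adjusted p was 0.291, shared by 1332 genes. Small unadjusted p-values were nevertheless frequent. A total of 2310 genes (15.9%) had an unadjusted p under 0.05, where an even spread of p would give 725. Of these, 1044 (7.2% of all tested) were higher and 1266 (8.73%) lower in MAN1 males. Most of the excess lay at p-values of 0.001 and above, since 25 genes had an unadjusted p under 0.001. Genes vary together in these libraries, so such an excess cannot be read as a count of changed genes.

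**Figure D2:**
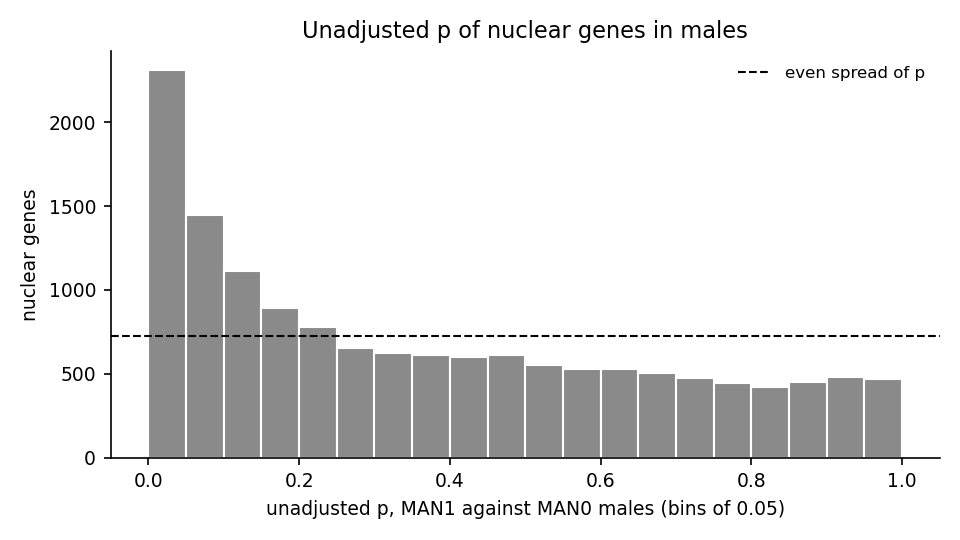
Number of nuclear genes in each bin of 0.05 of the unadjusted p for MAN1 against MAN0 males (edgeR, 14507 genes). The lowest bin holds 2310 genes, and the dashed line marks the 725 that an even spread of p would put in each bin.

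DESeq2, run on the same genes and libraries, gave a different count. It called 34 of 14496 genes (0.235%) at a Benjamini-Hochberg adjusted p under 0.05, 13 higher and 21 lower in MAN1 males. All 34 had an unadjusted p under 0.05 by edgeR, the largest being 0.00419. Their fold changes were mostly modest: the absolute log2 fold change had a median of 0.496 and ran from 0.168 to 2.06. Their mean levels lay between 1.46 and 157 CPM, with a median of 21.7 CPM. In 16 of the 34 genes the MAN1 and MAN0 values did not overlap, against 275 of all 14507 genes (1.9%). The 34 were picked for their difference between these groups, so nothing is read from that count. The DESeq2 count was unstable to the libraries used, and ranged from 5 without MAN0 male 6 to 694 without MAN0 male 1 when each male was left out in turn. Without MAN0 male 1 the 694 genes held 24 of the original 34, and without MAN1 male 5 the 9 genes called held 2 of them. It called 366 genes without MAN0 male 3, 61 without MAN0 male 2 and 14 without MAN0 male 7. It called 12 without MAN1 male 3, 11 without MAN0 male 4 and 9 without MAN1 male 4. Limma-voom called 0 genes, with 2180 at an unadjusted p under 0.05.

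**Figure D3:**
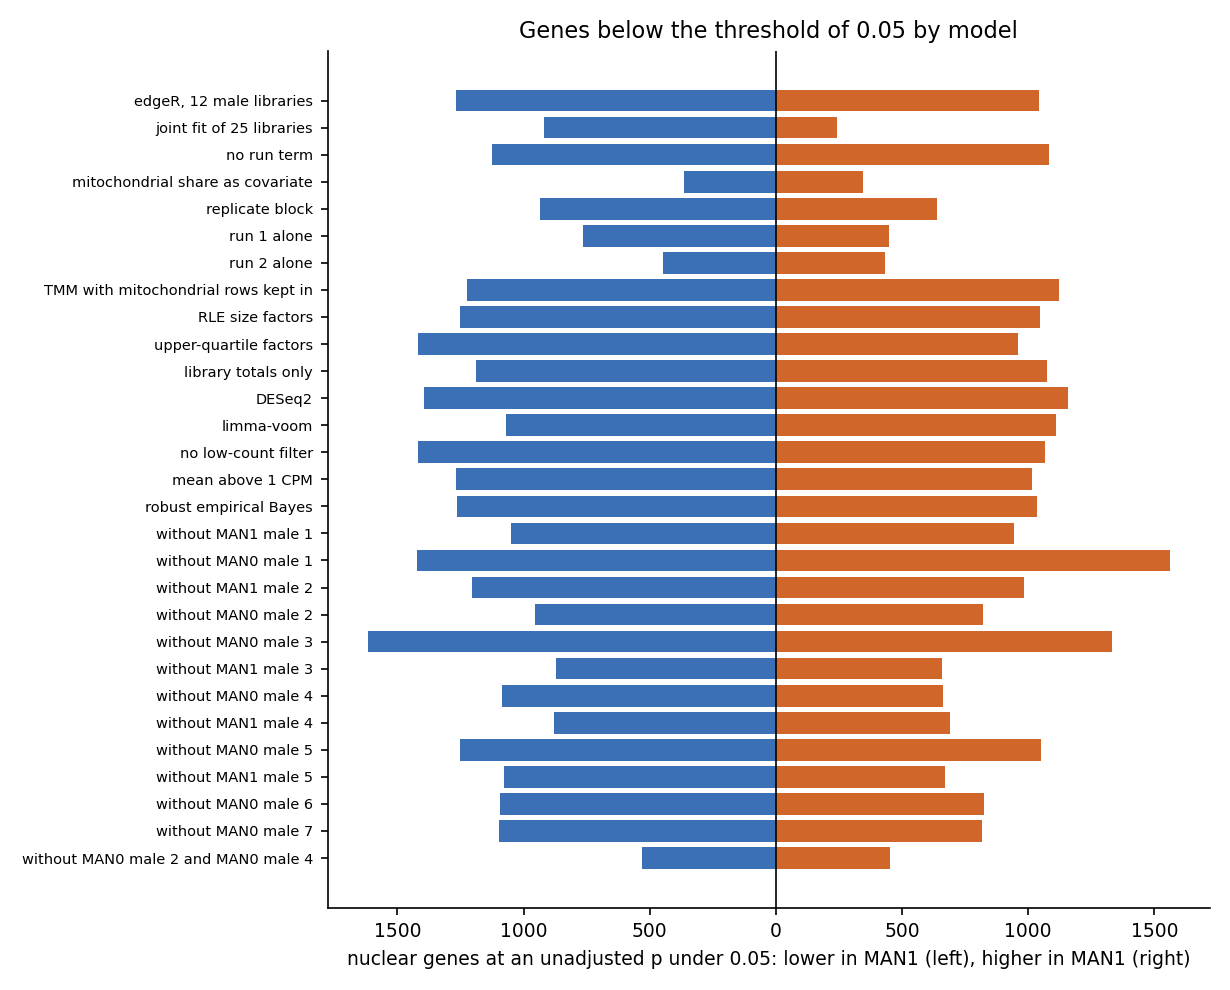
Nuclear genes at an unadjusted p under 0.05 in males under each model, with genes lower in MAN1 to the left and higher to the right. The 12-library edgeR model has 1266 lower and 1044 higher genes, and the model with the mitochondrial share as a covariate has 362 and 346.

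The number of genes at an unadjusted p under 0.05 depended on the model and on single libraries, both those that stood apart and others. With the mitochondrial share of each library as a covariate beside run, 708 genes were under 0.05 (346 higher, 362 lower), where an even spread gives 725. Of these 708 genes, 453 were among the 2310. With MAN0 male 2 also left out there were 687 (345 higher, 342 lower), of which 283 were among the 2310. The covariate and the group overlap in these libraries, the mean share being 8.81% in MAN1 and 11.1% in MAN0 males, and how much of the change in the count comes from that overlap was not tested. Without MAN0 male 2 alone 1778 genes were under 0.05, without MAN0 male 4 alone 1751, and without both 983 (452 higher, 531 lower). Leaving out other libraries moved it as much: it was 1529 without MAN1 male 3, 1570 without MAN1 male 4, 2949 without MAN0 male 3 and 2984 without MAN0 male 1, where more genes were higher (1561) than lower (1423). The higher genes fell in number to 657 without MAN1 male 3, 664 without MAN0 male 4, 672 without MAN1 male 5 and 692 without MAN1 male 4. In the model of all 25 libraries 1159 genes were under 0.05, of which 79.1% were lower in MAN1, against 54.8% lower in the 12-library model.

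Most differences among the genes at an unadjusted p under 0.05 were small, and the share of genes under 0.05 was larger in the more abundant classes. Of the 2310 genes, 885 (38.3%) differed by under 1.2-fold, 1211 (52.4%) by 1.2-fold to 1.5-fold, 177 (7.66%) by 1.5-fold to 2-fold and 37 (1.6%) by 2-fold or more. The 37 genes were mostly lower in MAN1 (30 lower and 7 higher) and scarce, with a median level of 1.58 CPM. Genes with a mean up to 1 CPM numbered 841, and in 42 of them (4.99%) the unadjusted p was under 0.05, with 32 of the 42 lower in MAN1. The share rose to 8.52% of 3746 genes between 1 and 10 CPM, 19% of 7415 genes between 10 and 100 CPM and 21.5% of 2505 genes above 100 CPM. Standard errors (SE) fell along the same classes, from a median of 0.363 on the log2 scale up to 1 CPM to 0.0873 above 100 CPM. With a larger SE a gene needs a larger difference to come under 0.05, so fold sizes of genes under 0.05 are not compared between levels. What the rise in the share comes from was not tested. The median log2 fold change over all genes of a class went from -0.099 up to 1 CPM, through -0.037 between 1 and 10 CPM, to 0.018 above 100 CPM. The class of scarce genes therefore had the lowest median, and whether it differs from the other classes was not tested.

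In 275 of 14507 genes (1.9%) the 5 MAN1 and the 7 MAN0 males did not overlap, 120 with all MAN1 males higher and 155 with all MAN1 males lower. Their median log2 fold change was 0.257 for the higher and -0.342 for the lower genes, and the largest were 0.627 and -0.925. Of the 275 genes, 266 also had an unadjusted p under 0.05. The split by direction depended on the scaling, which moves all genes of a library together, so it is not read as a property of the genes: it was 141 higher and 134 lower with the mitochondrial rows kept in the scaling, and 125 and 139 with RLE size factors (DESeq2's scaling). Without MAN0 male 2 and MAN0 male 4 the groups did not overlap in 353 genes, a comparison with fewer libraries to separate.

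The 2 higher and the 2 lower genes with the smallest p were followed through every library. ENSMOCG00000010681 had the smallest p of all. It was measured at 9.03, 7.29, 9.3, 8.22 and 12.3 CPM in MAN1 males 1 to 5. In the MAN0 males it ranged from 4.55 to 7.44 CPM, with a median of 6.1 CPM. The groups met at a single point, since MAN1 male 2, at 7.29 CPM, lay just below MAN0 male 5, at 7.44 CPM. The means were 9.22 ± 1.87 CPM (SD, n = 5) and 6.09 ± 0.859 CPM (SD, n = 7), a log2 fold change of 0.67 (SE 0.118), or 1.59-fold (edgeR quasi-likelihood, Benjamini-Hochberg adjusted p = 0.291). These levels rested on 79 to 243 counts per library.

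ENSMOCG00000004975 was measured at 15, 12.7, 13.3, 16.7 and 16.3 CPM in MAN1 males 1 to 5. In the MAN0 males it ranged from 8.43 to 12.4 CPM, with a median of 9.86 CPM. All 5 MAN1 males lay above all 7 MAN0 males, by a narrow margin at MAN0 male 5. The log2 fold change was 0.58 (SE 0.105), or 1.5-fold (edgeR quasi-likelihood, Benjamini-Hochberg adjusted p = 0.291). The means were 14.8 ± 1.78 CPM (SD, n = 5) in MAN1 and 10.1 ± 1.23 CPM (SD, n = 7) in MAN0.

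ENSMOCG00000016414 was the lower gene with the smallest p. It was measured at 49.4, 53.6, 53.6, 53.8 and 40.3 CPM in MAN1 males 1 to 5. In the MAN0 males it ranged from 58.4 to 76.2 CPM, with a median of 61.7 CPM. Every MAN1 male lay below every MAN0 male, and MAN1 male 5 and MAN0 male 2 marked the ends of the range. The log2 fold change was -0.41 (SE 0.0766), or 1.33-fold lower (edgeR quasi-likelihood, Benjamini-Hochberg adjusted p = 0.291). The means were 50.1 ± 5.79 CPM (SD, n = 5) in MAN1 and 64.3 ± 6.22 CPM (SD, n = 7) in MAN0.

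ENSMOCG00000002006 was measured at 37.3, 33.3, 27, 29.9 and 25.8 CPM in MAN1 males 1 to 5. In the MAN0 males it ranged from 36.3 to 49.9 CPM, with a median of 42.9 CPM. MAN1 male 1, at 37.3 CPM, lay above MAN0 male 5, at 36.3 CPM, and the other MAN1 males lay below the MAN0 range. The log2 fold change was -0.51 (SE 0.0967), or 1.42-fold lower (edgeR quasi-likelihood, Benjamini-Hochberg adjusted p = 0.291). The means were 30.7 ± 4.71 CPM (SD, n = 5) in MAN1 and 42.3 ± 4.31 CPM (SD, n = 7) in MAN0. DESeq2 called all 4 of these genes, with Benjamini-Hochberg adjusted p between 0.00225 and 0.00662. With the mitochondrial share as a covariate, the log2 fold changes were 0.54 for ENSMOCG00000010681, 0.57 for ENSMOCG00000004975, -0.305 for ENSMOCG00000016414 and -0.43 for ENSMOCG00000002006. All 4 kept their direction and were smaller than without it. In each of them MAN1 male 5 or MAN0 male 2 held an extreme value, with the exception of ENSMOCG00000004975, where the extremes were MAN1 male 4 and MAN0 male 4.

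**Figure D4:**
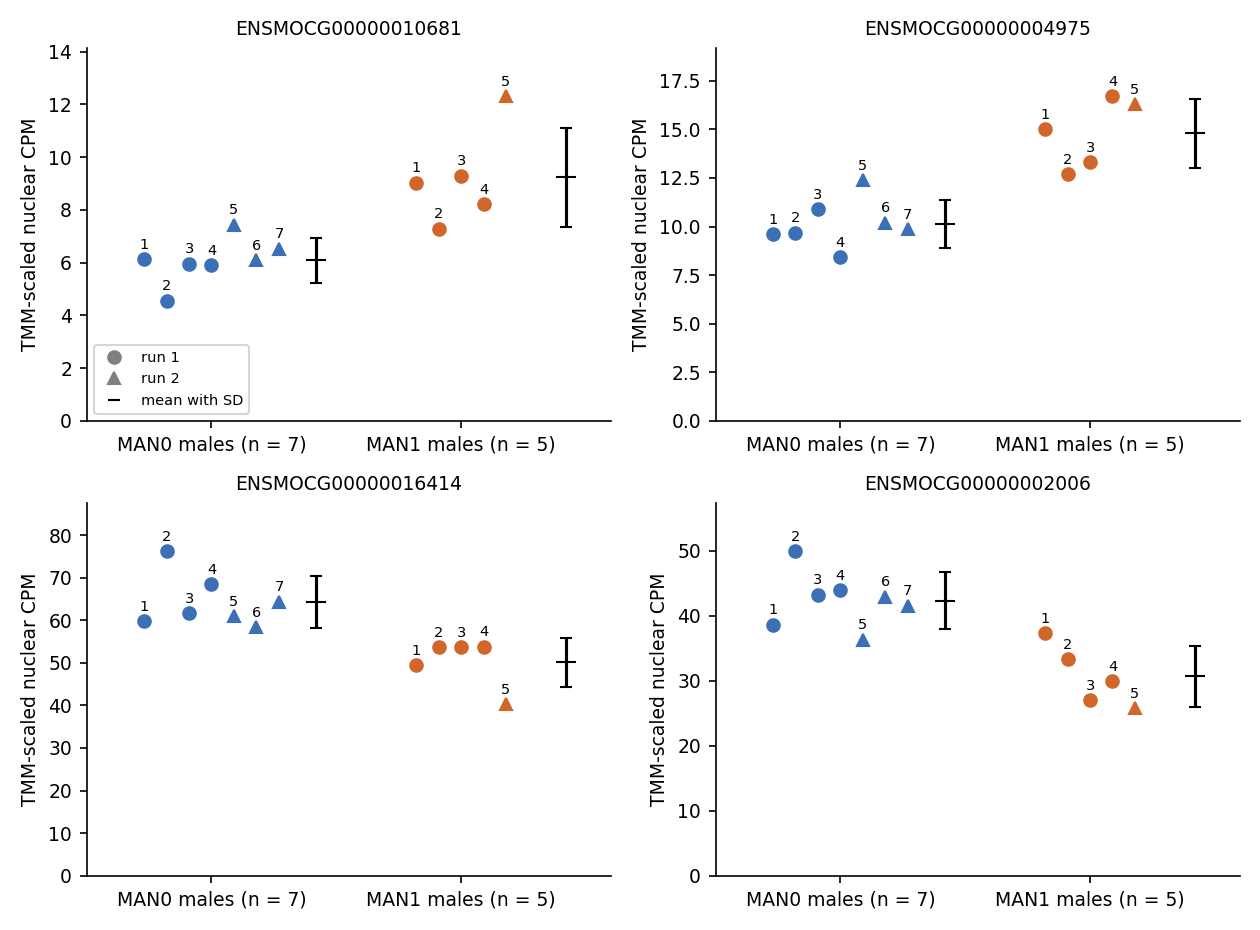
TMM-scaled nuclear CPM of the 4 genes with the smallest p (2 higher, 2 lower) in each male library. Numbers are replicates, circles run 1, triangles run 2, and bars the mean with SD. The groups do not overlap for ENSMOCG00000004975 and ENSMOCG00000016414 and overlap at their edges for the other 2.

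The runs hold separate libraries, so genes picked in run 1 could be looked up in run 2. In run 1 alone 1214 of 14447 genes (8.4%) had an unadjusted p under 0.05, and 14424 of the tested genes could be looked up in run 2. Of 449 genes higher in MAN1 in run 1, 387 (86.2%) were also higher in MAN1 male 5 than the mean of the 3 MAN0 males of run 2, where 51.4% of all 14424 genes were. Of 762 lower genes, 615 (80.7%) were also lower in run 2, against 48.6% of all genes. The median log2 difference of the higher genes was 0.327 in run 1, where they were chosen, and 0.179 in run 2, and that of the lower genes was -0.464 and -0.185. Run 2 has a single MAN1 male, which also had the lowest mitochondrial share of the 12 (7.71%), so the shared direction is that of this library. The choice in run 1 included MAN0 male 2, which had the highest mitochondrial share (17.8%), and the look-up is not given without it. Genes vary together, and whether this share exceeds what unrelated libraries would give was not tested.

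**Figure D5:**
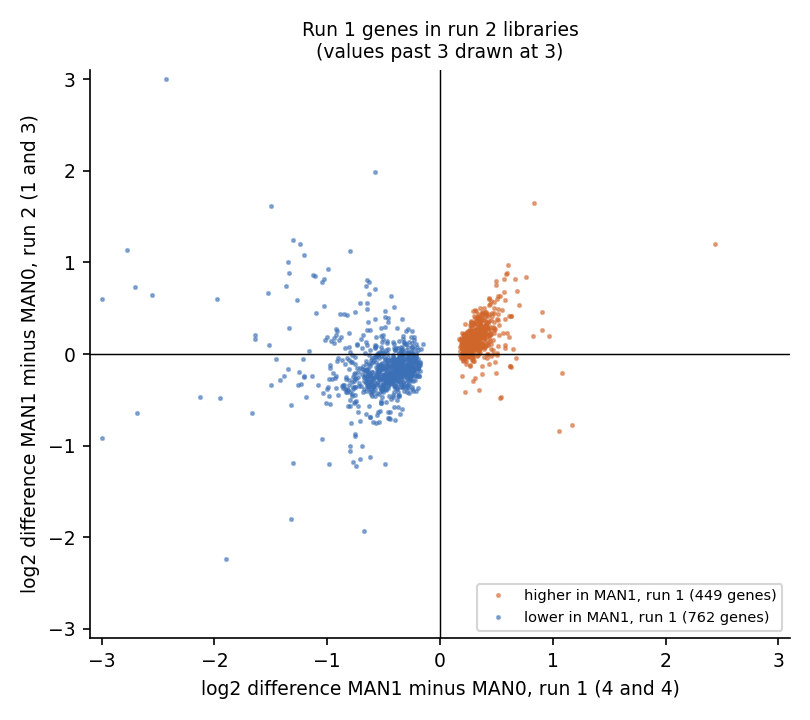
Log2 difference MAN1 minus MAN0 in run 1 (x axis, 4 against 4 males) and run 2 (y axis, 1 against 3 males) for genes with an unadjusted p under 0.05 in run 1, with values past 3 drawn at 3. Of the 449 higher genes 387 lie above 0 in run 2, and of the 762 lower genes 615 lie below 0.

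The title of the series names a male-specific impact, a question that turns on whether the MAN1 and MAN0 difference in males departs from that in females. In the model of all 25 libraries, 0 of 14827 genes (0%) passed the test of that difference (edgeR quasi-likelihood, smallest Benjamini-Hochberg adjusted p = 1). An unadjusted p under 0.05 was found in 102 genes (0.688%). The MAN1 minus MAN0 difference was higher in males than in females for 19 of them and lower for 83. The same contrast gave 0 calls by DESeq2 (115 at an unadjusted p under 0.05) and 0 by limma-voom (88). In the 13 female libraries fitted alone, 0 of 14456 genes passed (edgeR quasi-likelihood, smallest Benjamini-Hochberg adjusted p = 1) and 242 had an unadjusted p under 0.05, 94 higher and 148 lower in MAN1 females. The 25-library model treats males and females as independent. Deviations of those of the same rearing and number correlated above 0.1 in 9 of 12 pairs, which this model leaves out. With rearing and number as a replicate block there were again 0 calls, and the genes at an unadjusted p under 0.05 numbered 201. In 59 of them the MAN1 minus MAN0 difference was higher in males than in females, and in 142 it was lower. Run 1 alone gave 0 calls and 264 such genes, 85 with that difference higher in males and 179 with it lower. A count of 0 calls does not show that the sexes respond alike. The 242 genes in females and the 102 genes for the difference were fewer than an even spread of p would give. Genes vary together, so these counts and the 2310 genes in males are not read as a contrast of the sexes.

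Most of the genes under 0.05 in males had the same sign in females, in fits that share no library. Of 1042 higher genes that were tested in both sexes, 1001 (96.1%) were higher in MAN1 females, and of 1262 lower genes, 1150 (91.1%) were lower in them. Over all 14386 genes tested in both sexes the sign was shared by 73.6%. The difference between these shares was not tested. Correlations of the deviations of same-numbered males and females ran from -0.024 to 0.49 and were above 0.1 in 9 of 12 pairs. They are not set here against pairs of different number, and the sexes are not taken as independent looks at rearing.

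For the 4 genes, which were chosen by the comparison in males, the female values are given beside those of the males, on the scale of all 25 libraries. Choosing genes by their difference in males favours larger estimates in males. Smaller estimates in females, and the p-values of the difference between the sexes, are therefore not read as a result. ENSMOCG00000010681 ranged from 6.26 to 9.75 CPM in MAN1 females (median 6.66) and from 4.64 to 11.1 CPM in MAN0 females (median 6.55), with a log2 fold change of -0.0027 (SE 0.167) against 0.64 in males. Its difference between the sexes was 0.64 (SE 0.243, edgeR quasi-likelihood, unadjusted p = 0.0144, Benjamini-Hochberg adjusted p = 1). The MAN1 females lay within the range of the MAN0 females for this gene. ENSMOCG00000004975 had medians of 11.9 and 9.85 CPM in MAN1 and MAN0 females and a female log2 fold change of 0.15 (SE 0.157). ENSMOCG00000016414 had medians of 55 and 58.6 CPM and a female log2 fold change of -0.087 (SE 0.102). ENSMOCG00000002006 had medians of 35.9 and 42.3 CPM and a female log2 fold change of -0.20 (SE 0.106). For these 3 genes the female estimate had the sign of the male one and was smaller, and the difference between the sexes had unadjusted p of 0.105, 0.0712 and 0.0846 (edgeR quasi-likelihood, each with a Benjamini-Hochberg adjusted p of 1).

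The distance of a library from the centre of the males did not differ between MAN1 and MAN0 beyond the spread between libraries. Distance was the root mean square, over the 14507 genes, of a library's log2 CPM minus the median of the 12 males. It was 0.403, 0.372, 0.351, 0.376 and 0.331 in MAN1 males 1 to 5 and ranged from 0.301 to 0.572 in MAN0 males, with a median of 0.324. The largest distances were those of MAN0 male 2 (0.572) and MAN0 male 4 (0.428), and the other 5 MAN0 males lay at 0.324 or less. The centre is a median over 7 MAN0 and 5 MAN1 males and so lies nearer the MAN0 males by construction. With run in the model the difference was -0.0213 (exact permutation p = 0.782, also after adjustment), and without MAN0 male 2 it turned to 0.0176 (exact permutation p = 0.421). Spread between libraries of a group, taken in run 1, had a median SD of 0.156 on the log2 scale over genes in the 4 MAN1 males and 0.239 in the 4 MAN0 males. Without MAN0 male 2 the MAN0 value was 0.171, and the SD was larger in MAN0 for 53% of the genes, against 69.5% with it. The values without it rest on 3 MAN0 against 4 MAN1 males, so they are not like for like with the others.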

How the data were processed

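The deposited table holds estimated counts of 19648 Ensembl identifiers. They were made with Trim Galore, MultiQC and kallisto, per the submitters' processing notes; for versions, genome build, annotation and strand setting, the sources used here give nothing. Per the labels' protocols, RNA came from a kit that takes DNA and RNA together, and libraries from poly(A) capture and a directional kit. Kallisto divides reads shared by transcripts, so 9.11% to 10.1% of a male library's values were not whole, and levels of near-identical or overlapping genes are uncertain. The deposited estimated counts were rounded. Of the 19648 identifiers, 0 matched the RefSeq table of assembly MicOch1.0 at hand (26397 genes), so gene lists and marker genes fixed for this work were not used, and no sequences are shown. The identity of the 13 mitochondrial rows came with the question and was not checked against an annotation.

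Genes were filtered with filterByExpr (minimum count 10), scaled by TMM over nuclear rows and tested with edgeR 4.0.16 (glmQLFit, glmQLFTest, R 4.3.3) on group and run, with Benjamini-Hochberg adjustment over 14507 genes and a threshold of 0.05. SE was derived from the F statistic. Log2 CPM for distances used a prior count of 2. DESeq2 1.42.0 and limma 3.58.1 were alternatives. A count of 0 allows up to 3 counts, worth 0.101 to 0.173 CPM per male library, for counting error only. Library measures were tested by exact permutation within run. The same fit was also run on simulated data in which each gene varied independently. Genes vary together in these libraries, so nothing is read from that run. The 4 named genes are the 2 higher and 2 lower with the smallest p. The comparison, members and rules were chosen with earlier results of these data known. No libraries were identical: over the 31 pairs of libraries within a male group, the lowest chi-square divided by its degrees of freedom was 10.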

Additional observations from a re-analysis of the deposited data

Results flagged for a closer look

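A search for an extreme library covered 16 sets of values (8 measures in each male group), and 2 had one. The rate of about 1 in 20 that chance alone gives applies to a single set. These measures come from the same libraries and are not independent, so the 2 are not weighed against that rate. MAN0 male 2 had a mitochondrial share of 17.78%, and the next MAN0 male had 11.135%. MAN0 male 4 had 16699 nuclear genes with a count at equal depth, and the next MAN0 male had 16540. It is also the library with 15 genes far above those of every other male, summing to 12070 CPM. Results with and without both libraries stand in the report, and the part of other tissue or of RNA quality in them was not tested.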

How the results depend on the processing

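The mitochondrial difference of -2.68 points lost its unadjusted call in run 1 alone (-2.88), with labels permuted over all 12 males without run (-2.25), without MAN0 male 2 and MAN0 male 4 (-1.02) and with a replicate block (-2.68, exact permutation p = 0.0625, the smallest that 32 assignments allow); with each male left out it lay between -3.37 and -1.31. The difference in nuclear genes at equal depth gained an unadjusted call in run 1 alone (-140) and without thinning (-148). Without thinning, the groups also differ in mean depth. At equal depth the difference lay between -140 and -53 with each male left out. The top-10 share lay between -0.221 and -0.0966. By edgeR, 0 genes were called in all alternatives except run 2 alone (1 gene, ENSMOCG00000007706, with 1 MAN1 male assumed to vary like the MAN0 males); DESeq2 called 34, or 5 to 694 with each male left out. Genes at an unadjusted p under 0.05, 1044 higher and 1266 lower, became 242 higher in the model of 25 libraries, 346 higher and 362 lower with the mitochondrial covariate (345 and 342 also without MAN0 male 2), 640 higher with the replicate block, 449 and 765 in run 1, 433 and 448 in run 2, and 452 and 531 without MAN0 male 2 and MAN0 male 4. With each male left out, 657 to 1561 were higher and 872 to 1618 lower. MAN1 and MAN0 males of the same number did not deviate together (correlations from -0.34 to 0.062, and 1 of 5 MAN1 males correlated best with its own number), so the block is not read as pairing. The causes of these changes were not tested. The 4 named genes kept their direction in all 29 alternatives and passed only with DESeq2. They were chosen for their small p in these same libraries, so nothing is read from the kept direction. Alternatives that leave out both MAN0 males, add the covariate without MAN0 male 2, repeat DESeq2 or bear on genes at equal depth and on non-overlap were chosen after seeing the data. The median SE was largest in the scarcest genes, at 0.363 up to 1 CPM.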

Other observations

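A set of 23 nuclear genes was at 0 counts in at least 1 male and at 10 CPM or more in another. In 10 of them males of both rearing groups were at 0. Of the 23 genes, 16 passed the low-count filter, and 0 of these 16 had an unadjusted p under 0.05 for MAN1 against MAN0, against 15.9% of all genes tested. The genes were chosen for a wide spread between libraries, so this count says nothing about rearing. The next 2 identifiers were picked after their values were seen. ENSMOCG00000010773 was at 0 counts in MAN1 male 1 and MAN1 male 2 and at 7 counts (0.396 CPM) in MAN0 male 2, and lay between 87.3 and 198 CPM in the other 9 males. It was below 1 CPM in 5 of 6 MAN1 and 2 of 7 MAN0 females, and in 2 of 5 MAN1 and 1 of 7 MAN0 males. Its log2 fold change in males was -1.09 with an SE of 1.142 (adjusted p = 0.657 by edgeR with Benjamini-Hochberg adjustment). ENSMOCG00000007706 was at 0 counts in MAN0 male 3 and MAN1 male 5 and at 5 counts (0.237 CPM) in MAN0 male 1, against 14.2 to 41.9 CPM in the other 9 males. It was below 1 CPM in 3 of 6 MAN1 and 1 of 7 MAN0 females. Its log2 fold change in males was -0.456 (edgeR quasi-likelihood, Benjamini-Hochberg adjusted p = 0.865). The 3 low males of ENSMOCG00000010773 were all of run 1, and those of ENSMOCG00000007706 came from both runs. The source of these values was not tested.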
